A study of Homo sapiens with 18 samples.

Results

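A set of 55 genes, out of 33121 listed, was lower with both siRNAs against the MondoA-MLX pair than with a control siRNA, in cells given doxorubicin (DXR) and also in untreated cells. The members were chosen from their measured levels. A gene had to reach a mean of 5 CPM (a count scaled to the library's total) in both siControl groups, which 9721 genes did. Its mean of log2(CPM + 0.5) then had to be lower than siControl by at least 0.58 with siMondoA and with siMlx, in both conditions. TXNIP, ARRDC3, MLX and MLXIP were left out by name, and only TXNIP among them met the rule. The same rule turned round, for genes raised by both siRNAs in both conditions, found 14 genes.

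The cells were RPE-1, a human retinal pigment epithelial line immortalized with hTERT. They were transfected for 2 days, using Lipofectamine RNAiMax, with an siRNA against MLXIP (siMondoA), an siRNA against MLX (siMlx) or a control siRNA (siControl, called siLuci in the library names). They were then kept for 3 days in DXR, which breaks DNA, at a dose of 150 ng/ml, or left untreated. The 6 groups of 3 libraries were siMondoA with DXR, siMlx with DXR, siControl with DXR, and untreated siMondoA, siMlx and siControl. All libraries came from this 1 line. The labels do not say that the replicates were separate cultures, so p-values measure the spread between these libraries, which may be technical. The library names tag DXR cells as D5 and untreated cells as D0, so DXR and a difference in harvest day cannot be told apart. No siRNA sequence is used here.

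MondoA, encoded by MLXIP, is a transcription factor that enters the nucleus when glucose 6-phosphate rises. It binds DNA with its partner MLX at E-box-like sequences and is best known for driving TXNIP and ARRDC4, which restrain glucose uptake. MLX is also shared with the paralog ChREBP and with MXD and MNT repressors, so the loss of MLX and the loss of MondoA need not touch the same genes.

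Total counts per library were between 15503423 and 29219280, and the counts of members in a library ran between 24 for POMK and 19383 for ANKRD52. MLXIP averaged 4.03 ± 0.67 CPM with siMondoA and 70.5 ± 4.05 CPM with siControl in untreated cells (SD, n = 3 each). MLX averaged 7.31 ± 0.19 CPM with siMlx and 27.0 ± 0.78 CPM with siControl. MLX was itself higher with siMondoA, at 51.6 ± 2.11 CPM. The 12 genes listed as RPE markers summed to 576 to 754 CPM in untreated siControl libraries, and 6 of them had enough counts to be tested. Of the 12, RPE65 and RLBP1 were close to 0, at 0.02 and 0.08 CPM in untreated siControl cells. In the same cells the keratins KRT8 and KRT18, also on that list, stood at 345 and 273 CPM. The epithelial genes EPCAM and CDH1 stood at 0.03 and 0.02 CPM. VIM and COL1A1, listed as fibroblast markers, stood at 3060 and 99.9 CPM there. The blood gene HBB was at 0 in all groups. These are bulk libraries, in which fewer cells of a kind and less RNA per cell cannot be told apart.

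Of the 9721 genes at the level, 473 (4.87%) were lower by the rule's margin with siMondoA and 699 (7.19%) with siMlx in DXR cells. In untreated cells the counts were 939 (9.66%) with siMondoA and 955 (9.82%) with siMlx. The rule's 4 conditions met in 56 genes, TXNIP included. The median difference of the members from siControl was -0.96 with siMondoA and -0.92 with siMlx in DXR cells. In untreated cells it was -1.28 with siMondoA and -1.23 with siMlx. Over all 9721 genes the same medians were 0.01 and -0.01 with DXR and 0.04 and 0.04 untreated. These values chose the members and are given as a description, with no test. The widest falls were those of FAM122B with siMondoA, at -2.36 with DXR and -3.18 untreated, of KLHL8 with siMlx and DXR, at -2.21, and of AMMECR1 with siMlx in untreated cells, at -2.81.

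In all 55 members, and in each of the 4 comparisons, every knockdown library lay under every siControl library. The rule asked for a fall in each of these comparisons, so this separation largely follows from it and is only a description. Among the 9721 genes, 22.7% were apart in this way for siMondoA and 27% for siMlx in DXR cells, and 28.6% and 27.9% in untreated cells. Set against the mean of untreated siControl, the median member stood at -1.18, -1.20 and -1.37 in the 3 DXR-treated siMondoA libraries, at -1.29, -1.21 and -1.29 in the siMlx libraries and at -0.33, -0.29 and -0.34 in the siControl libraries. In untreated cells it stood at -1.32, -1.34 and -1.09 with siMondoA, at -1.23, -1.25 and -1.04 with siMlx and at 0.02, -0.08 and 0.03 with siControl. Replicate 3 was thus the highest of the 3 untreated libraries with each siRNA.

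Only 8 members were lower by at least 1 on the log2 scale in all 4 comparisons: ATP8B2, RBL1, CENPU, KIF4A, FAM122B, IQSEC1, RAD51AP1 and ARHGAP18. At the other end, the weakest of the 4 differences was -0.60 for UNG, -0.60 for YWHAG, -0.59 for ZNF385D, -0.59 for IREB2 and -0.58 for KLHL42. Just outside the rule were ARF3 at -0.57, ZXDB at -0.57, GTF2E1 at -0.57, KLHL15 at -0.56 and RNF11 at -0.56. The siMondoA fall was smaller with DXR than without it in 48 of the 55 members, and the siMlx fall in 36. In DXR cells 24 members were lower with siMondoA than with siMlx, and in untreated cells 29 were. By length-scaled level (RPKM) in untreated siControl cells, the members ran from SGIP1 at 1.33 through a median of 8.71 to YWHAG at 104.

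**Figure D1:**
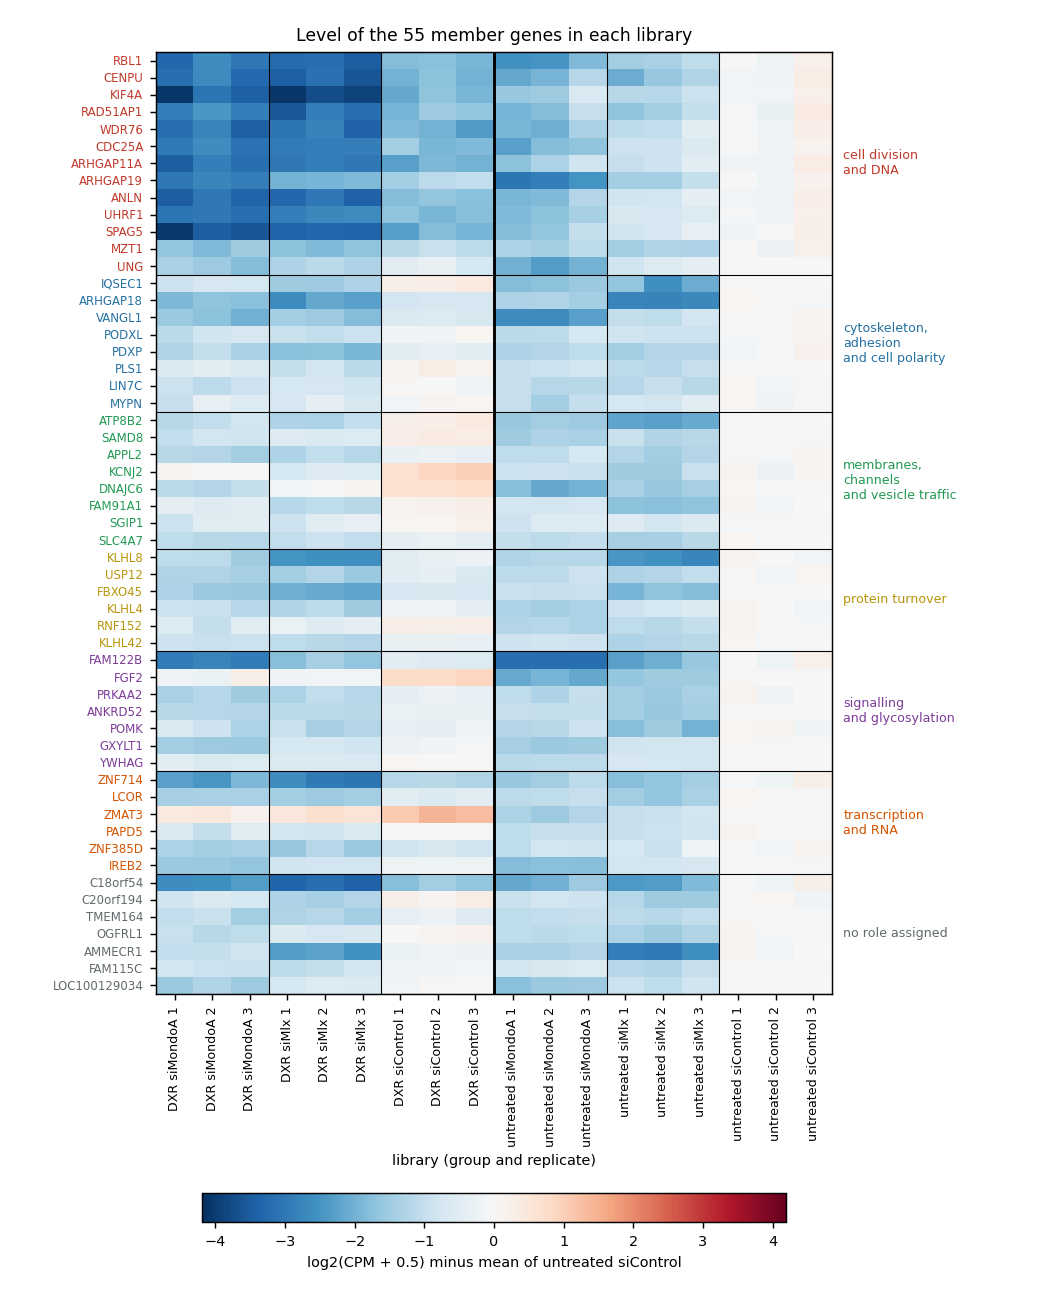
Level of each of the 55 members (rows, grouped by role) in each of the 18 libraries (columns), as log2(CPM + 0.5) minus the gene's mean in untreated siControl cells; blue is lower and red is higher. Most cell division rows are the darkest in DXR cells, and in untreated cells the siMondoA and siMlx columns are blue.

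As background, siRNAs can also pair with 3′ UTRs of other transcripts through short words, as miRNAs do through their seeds. The members' 3′ UTRs are described here (GENCODE release 29, GRCh38). For each gene a coding transcript tagged as principal by APPRIS was preferred. Among equals, the one with the longest coding sequence was taken. A 3′ UTR was found for 54 members. Their median length was 2814 bases, with 66.7% at 2000 bases or more and a GC content of 36.9%. Over 9497 genes at the level the median was 1224 bases, with 33.4% at 2000 or more and a GC content of 41.6%, and over the 14 genes raised by both siRNAs it was 1454 bases.

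Words of 7 bases held by at least 100 genes were ranked over the other 9281 genes at the level, with the members left out. The ranking used how much lower a word's holders were, with 3′ UTR length and GC content taken into account. This difference was weighted up for words that more genes hold, so the first word need not have the largest difference. The word TCCAGTA ranked first for siMondoA in both conditions. Its holders differed from other genes by an adjusted mean of -0.15 in DXR cells and -0.24 in untreated cells. For siMlx, CTGGTCA ranked first in DXR cells, with -0.18, and AATGAGA in untreated cells, with -0.21. Of the 54 members, 22 (40.7%) held the siMondoA word, against 9.3% of the other genes. A siMlx word was found in 31 (57.4%), against 24.6%, and words of both in 19 (35.2%), against 4.0%. Neither was found in 20 members (37.0%), against 70.1%. Longer 3′ UTRs have more room for any word, so the shares were also taken among 3′ UTRs of 2000 bases or more. There, 58.3% of 36 members and 19.0% of 3136 other genes held the siMondoA word, 66.7% and 49.5% a siMlx word, and 50% and 10.6% words of both. This cut has no upper bound and does not match length, so these shares still differ in length as well. Over all members the upper quartile of length was 4800 bases, against 2584 over all genes at the level. The words were ranked on the same comparisons, in the same libraries, that chose the members. The members' higher shares are therefore not independent of the rule. A word in a 3′ UTR is a description and not a site, and whether these words match the siRNAs was not tested.

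The 19 members with words of both were ARHGAP18, VANGL1, FGF2, KLHL8, LCOR, C20orf194, APPL2, TMEM164, OGFRL1, AMMECR1, ZMAT3, RNF152, DNAJC6, PAPD5, FAM91A1, SGIP1, GXYLT1, YWHAG and ZNF385D. The siMondoA word alone was in WDR76, SAMD8 and IREB2, and siMlx words alone were in 12 members. The 3 members with the siMondoA word alone had medians of -1.77 with siMondoA and -0.88 with siMlx in untreated cells. The 12 with siMlx words alone had -1.17 and -1.32, in the other order. The 19 with words of both had -1.11 and -1.3, and the 20 members with neither had -1.51 and -1.16. With siMondoA the members with neither word thus fell deeper than those with words of both. These medians are of the values that chose the members and are a description. Of the 13 cell division genes, 1 (7.7%) held the siMondoA word, 3 (23.1%) a siMlx word and 9 (69.2%) neither. These shares were near the 9.3%, 24.6% and 70.1% of the other genes. Words of both were in 4 of the 6 transcription and RNA genes (66.7%), against 4.0% of the other genes. The role groups were not matched for 3′ UTR length. It ran from 125 bases (SPAG5) to 3949 (ARHGAP19) in the cell division genes. In the transcription and RNA genes it ran from 2503 (PAPD5) to 10825 (LCOR). Examples follow with 10 bases on each side, 5′ to 3′ on the gene's strand (GRCh38 as annotated by GENCODE), the word in capitals. They show the words in members that fell with both siRNAs, among them IREB2, which fell more with siMondoA. PRKAA2, which holds siMlx words alone, fell more with siMlx in untreated cells. With DXR its order was the other, at -1.02 with siMondoA and -0.86 with siMlx. VANGL1 and KLHL8 hold words of both, although 1 word is shown for each.
FGF2 siMondoA word, chr4:122892513-122892539, plus strand: caattttttaTCCAGTAgtaaaatatg
FGF2 siMlx word, chr4:122892449-122892475, plus strand: gaaatttgttAATGAGAgtaaaagaaa
ARHGAP18 siMondoA word, chr6:129577621-129577647, minus strand: gatagtataaTCCAGTAatggttgaag
ARHGAP18 siMlx word, chr6:129577220-129577246, minus strand: gaatgctgttAATGAGAacagtcataa
VANGL1 siMondoA word, first of 4, chr1:115691696-115691722, plus strand: ctgcctttcgTCCAGTAccaagtcccc
KLHL8 siMlx word, chr4:87162121-87162147, minus strand: tagttcaccgCTGGTCAgtaatctggt
IREB2 siMondoA word, chr15:78500271-78500297, plus strand: gtctacctggTCCAGTAataatacaag
PRKAA2 siMlx word, first of 4, chr1:56708585-56708611, plus strand: cagtcccttaAATGAGAatccttatct
In FGF2 the siMondoA word starts at base 127 and the siMlx word at base 63 of a 3′ UTR of 5840 bases.

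**Figure D2:**
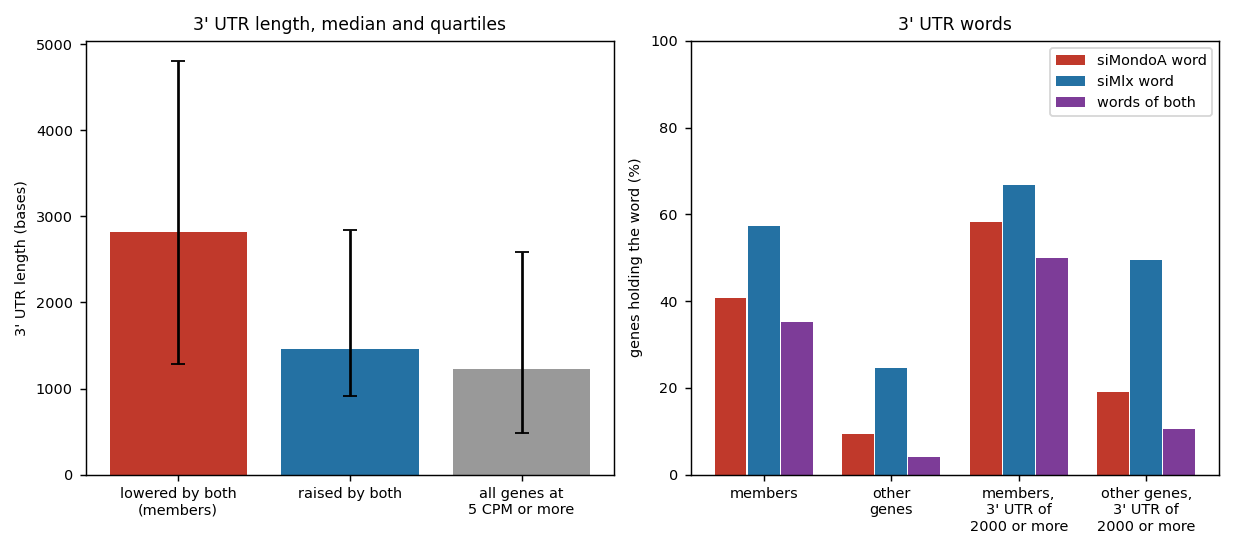
Left, length of the 3′ UTR in bases for the members, the genes raised by both siRNAs and all genes at 5 CPM or more (bars, medians; whiskers, quartiles). Right, percent of genes whose 3′ UTR holds the siMondoA word, a siMlx word or words of both, for members and other genes and for those with 3′ UTRs of 2000 bases or more; the members' bars are the higher ones in both pairs.

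Promoters were read for the 48 members found in the RefSeq table (GRCh38.p14), from 250 bases before the first listed start to 50 after it, both strands. The E-box CACGTG, the core that MLX-containing pairs bind, was in 1 of the 48 (2.1%), against 10.6% of 8113 promoters of genes at the level, 7.3% of all 35116 promoters and 2 of the 12 promoters of raised genes. An E2F word (TTTCCCGC or TTTGGCGC) was in 4 (8.3%), against 3.9% at the level and 2.3% of all. The CHR word TTTGAA was in 7 (14.6%), against 9.4% and 15.2%, and CCAAT in 19 (39.6%), against 37.1% and 34.6%. These are matches of letters, and a window without a match says nothing about the factor. The E-box of ANLN and the E2F words of RBL1, CDC25A and UHRF1, which all act in cell division, were as follows, 5′ to 3′ on the gene's strand with the word in capitals.
ANLN E-box, chr7:36389748-36389775, plus strand: cccggcgcggcCACGTGaccgagcgcag
RBL1 E2F word, chr20:37095995-37096024, minus strand: ttttcgcgcgcTTTGGCGCaggtggttgtg
CDC25A E2F word, chr3:48188443-48188472, minus strand: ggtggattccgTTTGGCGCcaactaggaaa
UHRF1 E2F word on the other strand, chr19:4909476-4909505, plus strand: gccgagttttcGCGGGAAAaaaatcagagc
The fourth member with an E2F word was KLHL42.

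The largest role group, with 13 members, acts in the cell cycle, mitosis and DNA maintenance. Their median differences were -1.14 with siMondoA and -1.16 with siMlx in DXR cells, and -1.66 and -0.88 in untreated cells. RBL1, a retinoblastoma-family protein that holds E2F target genes off, had 2.66, 4.59 and 3.37 CPM in DXR-treated siMondoA libraries and 2.84, 2.9 and 2.35 CPM in siMlx libraries, against 8.38, 8.71 and 7.69 CPM in siControl libraries. In untreated cells, RBL1 had 4.9, 5.08 and 8.06 CPM with siMondoA and 10.9, 11.6 and 14.5 CPM with siMlx, against 30.9, 26.3 and 35.7 CPM with siControl. The untreated siMondoA libraries were the lowest of the untreated ones, and the differences for siMondoA and siMlx were -1.14 and -1.46 with DXR and -2.30 and -1.29 untreated. CENPU, a protein of the inner kinetochore, had 7.01, 10.3 and 6.63 CPM in DXR-treated siMondoA libraries and 5.78, 7.2 and 5.11 CPM in siMlx libraries, against 16.7, 20.2 and 16.8 CPM in siControl libraries. In untreated cells, CENPU had 14.9, 17.2 and 29.2 CPM with siMondoA and 15.5, 21.8 and 27.5 CPM with siMlx, against 62, 59.3 and 83.3 CPM with siControl. Its siMondoA and siMlx libraries overlapped each other in both conditions. KIF4A, a kinesin motor of chromosomes and the spindle midzone, had 3.37, 7.23 and 5.58 CPM in DXR-treated siMondoA libraries and 3.38, 4.49 and 3.88 CPM in siMlx libraries, against 14.4, 19.8 and 16.6 CPM in siControl libraries. In untreated cells, KIF4A had 21.3, 22.6 and 41.4 CPM with siMondoA and 28.6, 28.1 and 34.7 CPM with siMlx, against 60.2, 59.5 and 75.9 CPM with siControl. Its siMondoA and siMlx libraries overlapped in both conditions, and its differences in DXR cells were -1.61 with siMondoA and -1.98 with siMlx, the widest of the group for siMlx.

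RAD51AP1, which acts in DNA repair by recombination, had 3.53, 5.04 and 3.68 CPM in DXR-treated siMondoA libraries and 2.07, 3.67 and 2.86 CPM in siMlx libraries, against 7.35, 10.2 and 9.47 CPM in siControl libraries. In untreated cells, RAD51AP1 had 7.44, 8.1 and 15.2 CPM with siMondoA and 8.97, 10.8 and 14.8 CPM with siMlx, against 28.7, 24.1 and 38.9 CPM with siControl. The siMondoA and siMlx libraries overlapped in both conditions here too. WDR76, a nuclear WD-repeat protein, had 3.1, 4.19 and 2.47 CPM in DXR-treated siMondoA libraries and 3.44, 4.1 and 2.61 CPM in siMlx libraries, against 8.38, 7.66 and 5.76 CPM in siControl libraries. In untreated cells, WDR76 had 8.08, 7.4 and 12.1 CPM with siMondoA and 14.5, 15.2 and 22.6 CPM with siMlx, against 30.3, 27.5 and 38.8 CPM with siControl. In untreated cells its siMlx libraries lay between the other 2 groups. The other members were CDC25A, a phosphatase that activates cyclin-dependent kinases; ANLN, the anillin scaffold of the contractile ring; ARHGAP11A and ARHGAP19, which are GTPase-activating proteins; UHRF1, which keeps DNA methylation through replication; SPAG5, a spindle protein; MZT1, a part of the gamma-tubulin ring complex; and UNG, which removes uracil from DNA. In DXR cells CDC25A had 6.14, 7.93 and 5.53 CPM with siMondoA and 6.32, 6.42 and 6.64 CPM with siMlx, against 18.2, 13.3 and 14 CPM with siControl. Untreated, CDC25A had 10.1, 14.2 and 15.7 CPM with siMondoA and 27.9, 28.2 and 33.5 CPM with siMlx, against 51.7, 45.9 and 57.4 CPM with siControl. Its siMondoA libraries were below the siMlx ones untreated and overlapped them with DXR. In DXR cells ARHGAP11A had 10.2, 15.4 and 12.5 CPM with siMondoA and 14.1, 15.4 and 14.3 CPM with siMlx, against 23.8, 31.5 and 28.9 CPM with siControl. Untreated, ARHGAP11A had 34.9, 45.9 and 64.4 CPM with siMondoA and 59.6, 63.4 and 83 CPM with siMlx, against 106, 104 and 144 CPM with siControl. The 2 knockdowns overlapped in both conditions. In DXR cells ARHGAP19 had 3.86, 4.74 and 4.21 CPM with siMondoA and 8.23, 8.45 and 9.15 CPM with siMlx, against 12.3, 15.7 and 16.5 CPM with siControl. Untreated, ARHGAP19 had 3.69, 4.11 and 5.55 CPM with siMondoA and 12.5, 12.3 and 16.8 CPM with siMlx, against 33.6, 30.4 and 39 CPM with siControl. ARHGAP19 had the widest siMondoA fall of the group, -1.68 with DXR and -2.83 untreated, and its siMondoA libraries were the lowest in both conditions. In DXR cells ANLN had 26.5, 36.6 and 28.5 CPM with siMondoA and 30.3, 36.9 and 27.8 CPM with siMlx, against 84.7, 94.5 and 88.9 CPM with siControl. Untreated, ANLN had 78.2, 83 and 129 CPM with siMondoA and 166, 171 and 229 CPM with siMlx, against 277, 268 and 362 CPM with siControl. ANLN was lowest with siMondoA untreated, and the 2 knockdowns overlapped with DXR. UNG was -2.12 with siMondoA and -0.60 with siMlx in untreated cells.

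With DXR, replicate 2 was the highest library of its group for 11 of the 13 genes with siMondoA, 9 with siMlx and 9 with siControl. In untreated cells replicate 3 was the highest for 13 of the 13 genes with siMondoA, 12 with siMlx and 13 with siControl. A list of 36 proliferation genes, which shares no gene with the members, is given beside them. By edgeR's quasi-likelihood test, 35 of its genes were lower with siMondoA in DXR cells (13.9% of all 13676 genes tested were lower, 10.9% higher) and 33 with siMlx (16.2% lower, 14% higher), with medians of -1.45 and -0.87. In untreated cells 36 were lower with siMondoA, with a median of -1.41, where 23.3% of all genes were lower and 23.3% higher. With siMlx in untreated cells 2 were higher and 2 lower, with a median of 0.00, where 23% of all genes were lower and 24.9% higher. In untreated cells the summed CPM of the list was 1318 to 2228 with siMondoA and 4001 to 5013 with siMlx, against 3865 to 5109 with siControl. The part of proliferation in their values was not tested.

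The 8 members of the cytoskeleton, adhesion and polarity group had medians of -0.86 and -1.07 with siMondoA and siMlx in DXR cells and of -1.17 and -1.10 in untreated cells. ARHGAP18, which switches off RhoA, had 87.3, 99.5 and 94.7 CPM in DXR-treated siMondoA libraries and 51.5, 71.6 and 65.3 CPM in siMlx libraries, against 183, 196 and 198 CPM in siControl libraries. In untreated cells, ARHGAP18 had 131, 133 and 121 CPM with siMondoA and 46.7, 45.8 and 48.4 CPM with siMlx, against 337, 324 and 306 CPM with siControl. The siMlx libraries were the lowest in both conditions, at -1.62 with DXR and -2.77 untreated. IQSEC1, an exchange factor for the GTPase Arf6, had 12.9, 14.8 and 14.2 CPM in DXR-treated siMondoA libraries and 8.34, 8.02 and 9.66 CPM in siMlx libraries, against 28.5, 29.2 and 32.1 CPM in siControl libraries. In untreated cells, IQSEC1 had 6.46, 6.91 and 7.93 CPM with siMondoA and 7.27, 3.67 and 5.37 CPM with siMlx, against 25.3, 22.9 and 24.6 CPM with siControl. The 2 knockdowns were apart in DXR cells, siMlx below, and overlapped in untreated cells. VANGL1, a core protein of planar cell polarity, had 25.8, 22.7 and 18.6 CPM in DXR-treated siMondoA libraries and 28.3, 26.3 and 21.2 CPM in siMlx libraries, against 50.7, 51.8 and 48.2 CPM in siControl libraries. In untreated cells, VANGL1 had 12.2, 11.9 and 15.4 CPM with siMondoA and 37.7, 36.4 and 43.9 CPM with siMlx, against 76.2, 72 and 82.3 CPM with siControl. Its siMondoA libraries were far below the siMlx ones untreated, and the 2 knockdowns overlapped with DXR. PODXL is the cell-surface sialomucin podocalyxin. In DXR cells PODXL had 13, 15.9 and 17.3 CPM with siMondoA and 14.9, 13.8 and 15.1 CPM with siMlx, against 25.8, 25.4 and 30.4 CPM with siControl. Untreated, PODXL had 12.9, 13.3 and 17 CPM with siMondoA and 15.8, 15.3 and 15.2 CPM with siMlx, against 28, 27.4 and 31.4 CPM with siControl. Its 2 knockdowns overlapped in both conditions, and its differences for siMondoA and siMlx were -0.81 and -0.87 with DXR and -0.99 and -0.88 untreated. PDXP is a phosphatase of cofilin. In DXR cells PDXP had 15.2, 18.6 and 14.4 CPM with siMondoA and 10.7, 11.1 and 9.45 CPM with siMlx, against 27.1, 29.1 and 26.6 CPM with siControl. Untreated, PDXP had 15.1, 15.9 and 17.7 CPM with siMondoA and 13.5, 15.8 and 15.6 CPM with siMlx, against 34.5, 35.7 and 43 CPM with siControl. With DXR the siMlx libraries were the lowest. PLS1 is an actin-bundling plastin. In DXR cells PLS1 had 5.71, 6.43 and 5.47 CPM with siMondoA and 4.25, 4.97 and 3.83 CPM with siMlx, against 9.69, 11.3 and 10.0 CPM with siControl. Untreated, PLS1 had 4.27, 4.55 and 5.03 CPM with siMondoA and 3.87, 3.61 and 4.27 CPM with siMlx, against 8.83, 8.91 and 8.99 CPM with siControl. The order with DXR was that of PDXP. LIN7C is a polarity scaffold. In DXR cells LIN7C had 16.9, 14.8 and 17.3 CPM with siMondoA and 19.1, 19.6 and 17.9 CPM with siMlx, against 33.4, 32.2 and 28.7 CPM with siControl. Untreated, LIN7C had 16.3, 13.7 and 14.1 CPM with siMondoA and 13.7, 16.3 and 14 CPM with siMlx, against 34.4, 29.4 and 33.2 CPM with siControl. With DXR its siMondoA libraries were the lowest, and untreated the 2 knockdowns overlapped. MYPN, known as a sarcomere protein of muscle, completed the group. MYPN had the smallest falls in 3 of the 4 comparisons, at -0.66 with siMondoA and -0.62 with siMlx in DXR cells and -0.67 with siMlx untreated.

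**Figure D3:**
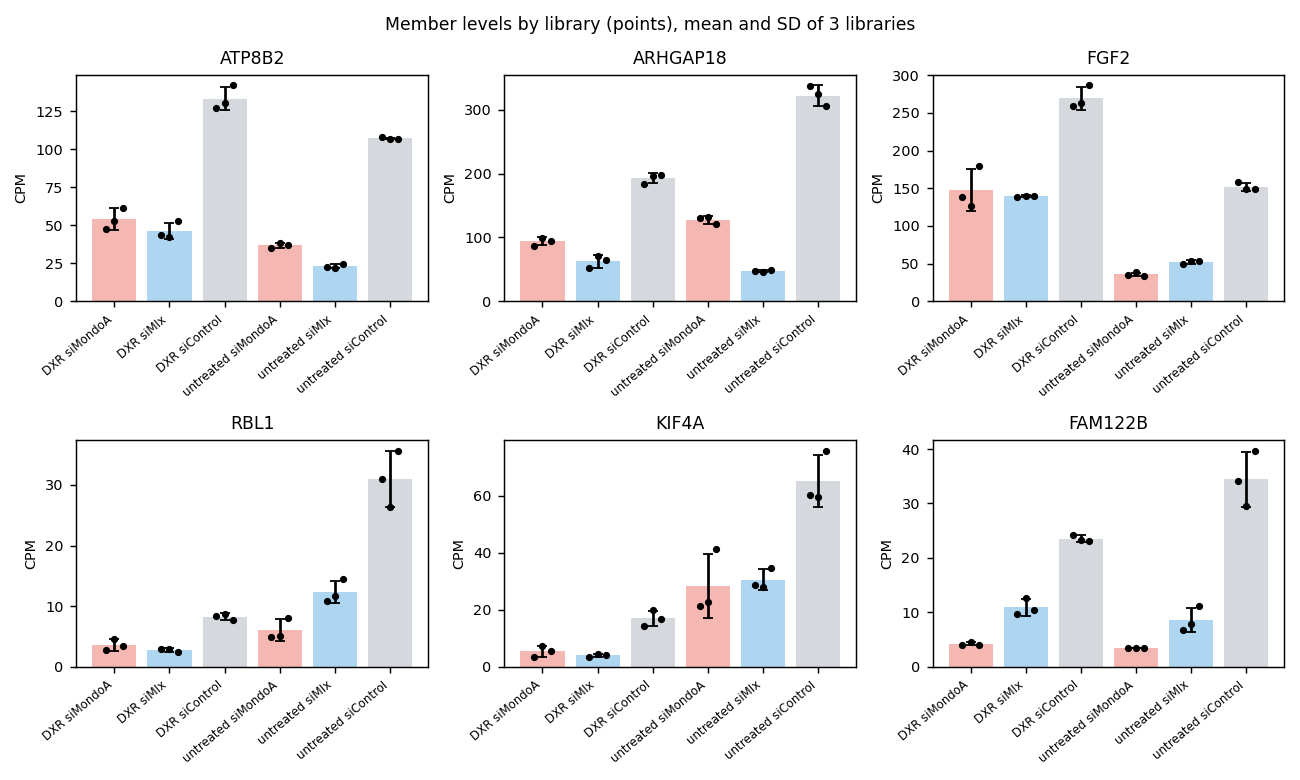
CPM of 6 members in each library (points) with the mean (bar) and SD (whisker) of 3 libraries, for siMondoA, siMlx and siControl in DXR and untreated cells. Every knockdown point lies under the siControl points of its condition, and FGF2 is higher in DXR than in untreated cells with each siRNA, whereas RBL1 and KIF4A are lower.

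The 8 members of the membrane, channel and vesicle group had medians of -0.89 and -0.87 with siMondoA and siMlx in DXR cells and of -1.0 and -1.32 in untreated cells. ATP8B2, a phospholipid flippase, was the member with the deepest fall in its weakest comparison. It had 47.3, 52.5 and 61.6 CPM in DXR-treated siMondoA libraries and 43.6, 42.5 and 52.6 CPM in siMlx libraries, against 127, 131 and 142 CPM in siControl libraries. In untreated cells, ATP8B2 had 34.9, 38.4 and 37.2 CPM with siMondoA and 22.7, 21.8 and 24.4 CPM with siMlx, against 108, 107 and 107 CPM with siControl. The differences for siMondoA and siMlx were -1.31 and -1.52 with DXR, where the knockdowns overlapped, and -1.53 and -2.20 untreated, siMlx below. SAMD8, which makes ceramide phosphoethanolamine, had 32.5, 37.9 and 37.3 CPM in DXR-treated siMondoA libraries and 46.2, 44.1 and 44.7 CPM in siMlx libraries, against 80.8, 85.2 and 83.3 CPM in siControl libraries. In untreated cells, SAMD8 had 23.4, 26.8 and 25.9 CPM with siMondoA and 34.6, 27.4 and 29.8 CPM with siMlx, against 69.5, 65.8 and 65.3 CPM with siControl. It was lower with siMondoA than with siMlx in every library of both conditions. DNAJC6, the auxilin that helps strip clathrin coats, had 7.29, 6.68 and 8.05 CPM in DXR-treated siMondoA libraries and 15.2, 16 and 17.9 CPM in siMlx libraries, against 26.2, 26.2 and 28 CPM in siControl libraries. In untreated cells, DNAJC6 had 4.44, 3.37 and 3.81 CPM with siMondoA and 6.1, 5.18 and 6.03 CPM with siMlx, against 17.5, 16 and 16 CPM with siControl. With DXR its siMlx libraries lay between the other 2 groups. KCNJ2 is an inward-rectifier potassium channel. In DXR cells KCNJ2 had 21.7, 20.2 and 19.9 CPM with siMondoA and 11.8, 13.7 and 13.3 CPM with siMlx, against 31.3, 37.5 and 40.2 CPM with siControl. Untreated, KCNJ2 had 10.4, 10.9 and 10.3 CPM with siMondoA and 6.8, 6.76 and 10.2 CPM with siMlx, against 21.6, 17 and 21.9 CPM with siControl. The siMlx libraries were the lowest in both conditions. APPL2 is an endosomal adaptor. In DXR cells APPL2 had 40.5, 39 and 33.4 CPM with siMondoA and 37.5, 44.9 and 40.1 CPM with siMlx, against 73.3, 76.7 and 73.1 CPM with siControl. Untreated, APPL2 had 43.6, 43.5 and 54.8 CPM with siMondoA and 39.1, 33.4 and 39.2 CPM with siMlx, against 89.1, 88.5 and 99.2 CPM with siControl. The siMlx libraries were the lowest untreated, and the 2 knockdowns overlapped with DXR. FAM91A1, which takes part in vesicle capture at the Golgi, was lower with siMlx, at -1.35 in DXR and -1.73 in untreated cells, than with siMondoA, at -0.65 and -0.75. SGIP1, an endocytic adaptor, and SLC4A7, a sodium bicarbonate cotransporter, completed the group.

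The 6 members of protein turnover had medians of -0.80 and -0.95 with siMondoA and siMlx in DXR cells and of -1.12 and -1.21 in untreated cells. KLHL8, a Kelch-repeat substrate adaptor of ubiquitin ligases, had 7.61, 7.33 and 5.42 CPM in DXR-treated siMondoA libraries and 2.45, 2.32 and 2.3 CPM in siMlx libraries, against 11.7, 12.9 and 13.7 CPM in siControl libraries. In untreated cells, KLHL8 had 6.58, 6.87 and 6.84 CPM with siMondoA and 2.58, 2.41 and 2.03 CPM with siMlx, against 17.8, 16.2 and 15 CPM with siControl. The siMlx libraries were the lowest, with no overlap with siMondoA, in both conditions. FBXO45, a substrate receptor of ubiquitin ligases, showed the same order. In DXR cells FBXO45 had 11.6, 9.68 and 9.42 CPM with siMondoA and 6.71, 6.37 and 5.93 CPM with siMlx, against 17.8, 18.5 and 17.8 CPM with siControl. Untreated, FBXO45 had 15.3, 14.9 and 15.2 CPM with siMondoA and 7.33, 8.9 and 7.95 CPM with siMlx, against 30.1, 28.9 and 29.9 CPM with siControl. There was no overlap between its siMlx and siMondoA libraries. USP12 is a deubiquitinase. In DXR cells USP12 had 29.2, 29.7 and 26.8 CPM with siMondoA and 26.4, 30.3 and 23.7 CPM with siMlx, against 51.5, 53.9 and 45.7 CPM with siControl. Untreated, USP12 had 33.1, 33.3 and 38.6 CPM with siMondoA and 28.5, 30.2 and 34.7 CPM with siMlx, against 73.2, 66.6 and 74.9 CPM with siControl. Its 2 knockdowns overlapped in both conditions. In DXR cells KLHL4 had 21, 20.6 and 17 CPM with siMondoA and 16.3, 18.3 and 13.8 CPM with siMlx, against 33.8, 34.1 and 30.3 CPM with siControl. Untreated, KLHL4 had 15.5, 14 and 15.4 CPM with siMondoA and 21.2, 23.4 and 26 CPM with siMlx, against 43.1, 39.5 and 36.5 CPM with siControl. KLHL4, a Kelch-like gene, was lowest with siMondoA untreated, and its knockdowns overlapped with DXR. The Kelch-like gene KLHL42 and the lysosomal ubiquitin ligase RNF152 completed the group.

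The 7 members of signalling and glycosylation had medians of -0.90 and -0.86 with siMondoA and siMlx in DXR cells and of -1.11 and -1.48 in untreated cells. FGF2, a fibroblast growth factor, had 138, 126 and 179 CPM in DXR-treated siMondoA libraries and 138, 140.0 and 139.7 CPM in siMlx libraries, against 259, 262 and 286 CPM in siControl libraries. In untreated cells, FGF2 had 34.4, 38.5 and 33.8 CPM with siMondoA and 48.8, 53.7 and 54 CPM with siMlx, against 158, 149.5 and 149 CPM with siControl. The 2 knockdowns were apart untreated and overlapped with DXR, where both were about as high as untreated siControl cells. FAM122B, a relative of the PP2A inhibitor FAM122A, had 4.02, 4.54 and 4 CPM in DXR-treated siMondoA libraries and 9.6, 12.7 and 10.5 CPM in siMlx libraries, against 24.2, 23.3 and 23.1 CPM in siControl libraries. In untreated cells, FAM122B had 3.35, 3.33 and 3.35 CPM with siMondoA and 6.68, 7.91 and 11.1 CPM with siMlx, against 34.1, 29.5 and 39.7 CPM with siControl. The siMondoA libraries were the lowest in both conditions. PRKAA2, a catalytic subunit of the energy sensor AMPK, had 9.24, 10.5 and 8.53 CPM in DXR-treated siMondoA libraries and 9.54, 11.7 and 10.4 CPM in siMlx libraries, against 18.5, 20.9 and 19.4 CPM in siControl libraries. In untreated cells, PRKAA2 had 11.5, 9.67 and 12.4 CPM with siMondoA and 8.56, 8.01 and 9.26 CPM with siMlx, against 27.3, 22.3 and 24.5 CPM with siControl. With DXR its 2 knockdowns overlapped. ANKRD52 is a regulatory subunit of protein phosphatase PP6. In DXR cells ANKRD52 had 288, 281 and 273 CPM with siMondoA and 291, 297 and 285 CPM with siMlx, against 534, 514 and 520.4 CPM with siControl. Untreated, ANKRD52 had 331, 323 and 321 CPM with siMondoA and 241, 216 and 237 CPM with siMlx, against 663, 635 and 637 CPM with siControl. Its siMlx libraries were the lowest untreated, and the 2 knockdowns overlapped with DXR. POMK is a kinase of O-mannosyl glycans. In DXR cells POMK had 4.19, 3.44 and 2.37 CPM with siMondoA and 3.27, 2.22 and 2.55 CPM with siMlx, against 5.21, 5.06 and 5.67 CPM with siControl. Untreated, POMK had 2.6, 2.76 and 3.48 CPM with siMondoA and 1.58, 2.1 and 1.32 CPM with siMlx, against 7.12, 7.3 and 5.84 CPM with siControl. The order of the knockdowns was that of ANKRD52, at a far lower count. YWHAG, a phosphoserine-binding adaptor, and GXYLT1, which adds xylose to Notch, completed the group. GXYLT1 was lower with siMondoA, at -1.36 with DXR and -1.49 untreated, than with siMlx, at -0.61 and -0.79.

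The 6 members of transcription and RNA had medians of -0.90 and -0.71 with siMondoA and siMlx in DXR cells and of -1.20 and -0.90 in untreated cells. ZNF714, a zinc finger protein, had 2.72, 2.39 and 3.79 CPM in DXR-treated siMondoA libraries and 2.07, 1.5 and 1.43 CPM in siMlx libraries, against 6.28, 6.56 and 6.09 CPM in siControl libraries. In untreated cells, ZNF714 had 4.73, 5.25 and 6.9 CPM with siMondoA and 4.04, 4.56 and 5.21 CPM with siMlx, against 14.5, 13.3 and 18.2 CPM with siControl. It belongs to a large family of similar genes, and whether its counts share reads with them was not tested. LCOR, a corepressor of nuclear receptors, had 33.5, 34.4 and 34.9 CPM in DXR-treated siMondoA libraries and 32.2, 31 and 32.7 CPM in siMlx libraries, against 66.2, 58.3 and 64.8 CPM in siControl libraries. In untreated cells, LCOR had 41.5, 42.7 and 45.8 CPM with siMondoA and 32.4, 29 and 35 CPM with siMlx, against 94.6, 88.5 and 86.7 CPM with siControl. The 2 knockdowns were apart untreated, siMlx below, and were apart with DXR as well, by little. IREB2, which binds iron-responsive RNA elements, was lower with siMondoA, at -1.37 with DXR and -1.79 untreated, than with siMlx, at -0.59 and -0.76. ZMAT3 is an RNA-binding target of p53. In DXR cells ZMAT3 had 213, 217 and 182 CPM with siMondoA and 224, 256 and 233 CPM with siMlx, against 341, 435 and 394 CPM with siControl. Untreated, ZMAT3 had 63.3, 55.8 and 68.4 CPM with siMondoA and 82.1, 82.8 and 93.6 CPM with siMlx, against 159.6, 155 and 165 CPM with siControl. The siMondoA libraries were the lowest in both conditions. PAPD5 (now TENT4B) is a noncanonical poly(A) polymerase. In DXR cells PAPD5 had 15.3, 11.4 and 16.1 CPM with siMondoA and 13.2, 12.8 and 15 CPM with siMlx, against 22.3, 23.5 and 22 CPM with siControl. Untreated, PAPD5 had 10.9, 11.8 and 11.8 CPM with siMondoA and 11.6, 12.3 and 12.9 CPM with siMlx, against 25.2, 22.9 and 22.1 CPM with siControl. Its 2 knockdowns overlapped in both conditions. In DXR cells ZNF385D had 4.57, 4.19 and 4.42 CPM with siMondoA and 3.71, 5.02 and 3.83 CPM with siMlx, against 6.57, 7.46 and 6.63 CPM with siControl. Untreated, ZNF385D had 5.6, 6.74 and 6.64 CPM with siMondoA and 7.15, 6.18 and 10.6 CPM with siMlx, against 11.8, 11.3 and 13.6 CPM with siControl. ZNF385D, a zinc finger gene, showed the same overlap.

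No role was assigned to C18orf54, C20orf194, TMEM164, OGFRL1, AMMECR1, FAM115C (now TCAF2) and LOC100129034, which had medians of -0.88 and -0.92 with siMondoA and siMlx in DXR cells and of -1.08 and -1.36 in untreated cells. C18orf54 had 3.86, 3.94 and 4.69 CPM in DXR-treated siMondoA libraries and 2.07, 2.41 and 1.99 CPM in siMlx libraries, against 7.26, 9.21 and 7.87 CPM in siControl libraries. In untreated cells, C18orf54 had 5.48, 6.04 and 8.77 CPM with siMondoA and 4.45, 4.71 and 6.9 CPM with siMlx, against 24.8, 23.2 and 30.7 CPM with siControl. Untreated replicate 3 was the highest of each group, as in the cell division genes. AMMECR1 had 28.1, 29 and 32.4 CPM in DXR-treated siMondoA libraries and 11.1, 12 and 9.71 CPM in siMlx libraries, against 48.2, 52.9 and 49.6 CPM in siControl libraries. In untreated cells, AMMECR1 had 22.3, 22.3 and 24.5 CPM with siMondoA and 7.56, 7.02 and 9.43 CPM with siMlx, against 64, 53.9 and 58.4 CPM with siControl. The siMlx libraries were the lowest in both conditions. In DXR cells C20orf194 had 11.4, 13.4 and 12.4 CPM with siMondoA and 8.12, 7.68 and 8.69 CPM with siMlx, against 25, 22.8 and 25.8 CPM with siControl. Untreated, C20orf194 had 10.7, 11.8 and 11.2 CPM with siMondoA and 8.85, 7.02 and 7.01 CPM with siMlx, against 21.8, 22 and 18.9 CPM with siControl. Here too the siMlx libraries were the lowest in both conditions. In DXR cells TMEM164 had 24.6, 26.1 and 18.3 CPM with siMondoA and 20.9, 21.8 and 18.6 CPM with siMlx, against 40.4, 42.5 and 35 CPM with siControl. Untreated, TMEM164 had 24.2, 24.6 and 25.7 CPM with siMondoA and 23.6, 22.2 and 24.6 CPM with siMlx, against 52.4, 51.3 and 49.3 CPM with siControl. The knockdowns of TMEM164 overlapped in both conditions. In DXR cells OGFRL1 had 43.2, 37.3 and 39.8 CPM with siMondoA and 55.3, 50.7 and 52.3 CPM with siMlx, against 84.9, 90.7 and 94.7 CPM with siControl. Untreated, OGFRL1 had 39.8, 38.3 and 39.7 CPM with siMondoA and 33.4, 29.3 and 34.6 CPM with siMlx, against 91.4, 79.2 and 81.5 CPM with siControl. OGFRL1 was lowest with siMlx untreated and with siMondoA in DXR cells. LOC100129034, which GENCODE does not list by that name, was lower with siMondoA, at -1.44 with DXR and -1.62 untreated, than with siMlx, at -0.61 and -0.93.

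**Figure D4:**
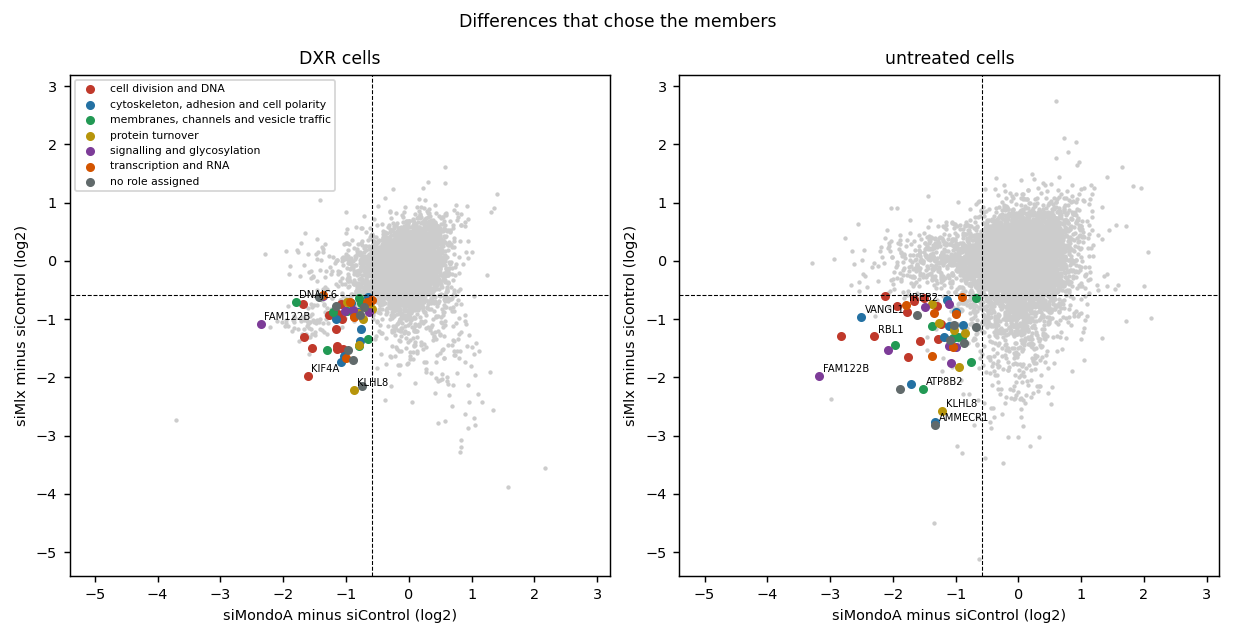
Difference from siControl in mean log2(CPM + 0.5) with siMondoA (horizontal axis) and with siMlx (vertical axis) for genes at 5 CPM or more, in DXR cells (left) and untreated cells (right), with members coloured by role and other genes in grey; MLX and MLXIP are not drawn. Both axes share the siControl libraries, the dashed lines at -0.58 bound the rule, and the members reach -3.18 for FAM122B with siMondoA and -2.81 for AMMECR1 with siMlx.

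The rule did not use the response to DXR within an siRNA, although the same groups' means entered it, and this was tested with edgeR's quasi-likelihood test over all 13676 genes. With siMondoA 20 members were higher and 18 lower with DXR, where 26.2% of all genes were higher and 28% lower, and the members' median was 0.10 against -0.02 over all genes. With siMlx 25 were higher and 19 lower (30.9% and 31.2% of all genes), with a median of 0.20 against 0.00. With siControl 13 were higher and 31 lower (28.1% and 28.6% of all genes), with a median of -0.25 against -0.01. The 31 lower members with siControl were 56.4% of the set.

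Of the 13 cell division members, 11 were lower and 1 higher with DXR in siMondoA cells, with a median of -1.22. All 13 were lower with siMlx and with siControl, with medians of -2.06 and -1.73. With siMondoA the values were -2.26 ± 0.24 (SE; adjusted p = 1.83e-07) for KIF4A, -2.19 ± 0.21 (SE; adjusted p = 6.75e-08) for SPAG5, -1.8 ± 0.19 (SE; adjusted p = 2.41e-07) for ARHGAP11A, -1.54 ± 0.17 (SE; adjusted p = 3.55e-07) for ANLN and -1.34 ± 0.12 (SE; adjusted p = 1.34e-08) for UHRF1. The 1 gene of the group that was higher with siMondoA was UNG, at 0.73 ± 0.16 (SE; adjusted p = 0.000613). With siMlx the fall was -2.82 ± 0.25 (SE; adjusted p = 7.68e-09) for KIF4A, -2.44 ± 0.17 (SE; adjusted p = 3.33e-10) for ANLN, -1.97 ± 0.11 (SE; adjusted p = 1.66e-11) for UHRF1, -2.07 ± 0.15 (SE; adjusted p = 6.63e-10) for CDC25A and -2.68 ± 0.20 (SE; adjusted p = 7.7e-10) for SPAG5. In siControl cells it was -1.74 ± 0.10 (SE; adjusted p = 8.65e-11) for UHRF1, -1.67 ± 0.13 (SE; adjusted p = 4.11e-09) for CDC25A, -1.82 ± 0.15 (SE; adjusted p = 9.42e-09) for RBL1, -1.98 ± 0.17 (SE; adjusted p = 1.52e-08) for ARHGAP11A and -1.97 ± 0.17 (SE; adjusted p = 1.63e-08) for SPAG5. The proliferation list was lower with DXR for 33 of 36 genes with siMondoA, 36 with siMlx and 35 with siControl.

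Of the members that were higher with DXR, ZMAT3 had the smallest p with each siRNA. Its change was 1.82 ± 0.09 (SE; adjusted p = 4.6e-12) with siMondoA, 1.6 ± 0.08 (SE; adjusted p = 8.45e-12) with siMlx and 1.38 ± 0.08 (SE; adjusted p = 9.57e-11) with siControl. FGF2 changed by 2.17 ± 0.10 (SE; adjusted p = 5.5e-12) with siMondoA, 1.55 ± 0.10 (SE; adjusted p = 1.23e-10) with siMlx and 0.92 ± 0.10 (SE; adjusted p = 1.24e-07) with siControl. DNAJC6 changed by 1.04 ± 0.13 (SE; adjusted p = 9.65e-07) with siMondoA, 1.64 ± 0.11 (SE; adjusted p = 1.67e-10) with siMlx and 0.79 ± 0.09 (SE; adjusted p = 4.9e-07) with siControl. KCNJ2 changed by 1.08 ± 0.13 (SE; adjusted p = 1.16e-06) with siMondoA and 0.94 ± 0.12 (SE; adjusted p = 1.32e-06) with siControl. Others were SAMD8 with siControl, at 0.41 ± 0.07 (SE; adjusted p = 7.35e-05), ATP8B2 and FAM91A1 with siMlx, at 1.14 ± 0.10 (SE; adjusted p = 4.61e-09) and 0.73 ± 0.07 (SE; adjusted p = 1.48e-08), and YWHAG with siMondoA, at 0.67 ± 0.05 (SE; adjusted p = 3.25e-09). By role, the membrane, channel and vesicle genes were higher in 5 of 8 cases with siMondoA, 7 with siMlx and 5 with siControl.

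**Figure D5:**
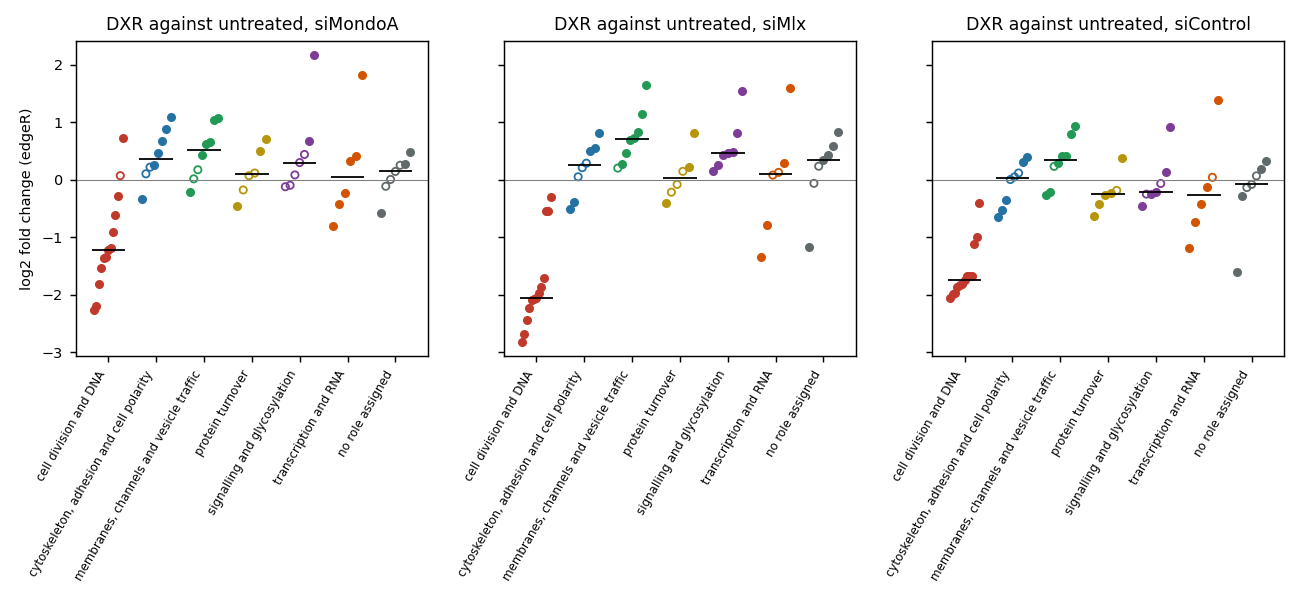
Log2 fold change of DXR against untreated cells for each member (points), by role group, with siMondoA, siMlx and siControl; filled points had an adjusted p under 0.05 in edgeR, and lines are group medians. The cell division genes lie lowest in each panel, with medians of -1.22, -2.06 and -1.73.

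The depth of the fall was next compared between the knockdowns, which the rule did not do. In DXR cells 13 members were higher and 13 lower with siMondoA than with siMlx, where 18.9% of all genes were higher and 20% lower, and in untreated cells 17 were higher and 21 lower (28.5% and 30.4%). The members' medians were 0.04 with DXR and -0.10 untreated, against -0.01 over all genes in both.

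In DXR cells, KLHL8 differed by 1.5 ± 0.14 (SE; adjusted p = 8.1e-08), AMMECR1 by 1.42 ± 0.10 (SE; adjusted p = 6.89e-10), FAM91A1 by 0.68 ± 0.06 (SE; adjusted p = 5.16e-08), FBXO45 by 0.67 ± 0.10 (SE; adjusted p = 1.71e-05) and ARHGAP18 by 0.55 ± 0.08 (SE; adjusted p = 2.38e-05), all higher with siMondoA. FAM122B, at -1.41 ± 0.16 (SE; adjusted p = 5.86e-07), DNAJC6, at -1.19 ± 0.10 (SE; adjusted p = 2.22e-08), LOC100129034, at -0.85 ± 0.07 (SE; adjusted p = 1.91e-08), IREB2, at -0.82 ± 0.05 (SE; adjusted p = 8.49e-11), and GXYLT1, at -0.8 ± 0.07 (SE; adjusted p = 8.19e-09), were lower with siMondoA. In the cell division group 3 of 13 were lower and none higher with siMondoA in DXR cells, with a median of -0.08.

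Higher with siMondoA in untreated cells were KLHL8, at 1.53 ± 0.15 (SE; adjusted p = 2.98e-08), AMMECR1, at 1.52 ± 0.11 (SE; adjusted p = 2.23e-10), ARHGAP18, at 1.44 ± 0.09 (SE; adjusted p = 2.01e-11), FAM91A1, at 0.98 ± 0.07 (SE; adjusted p = 1.75e-10), and ANKRD52, at 0.49 ± 0.05 (SE; adjusted p = 6.4e-08). Lower with siMondoA were ARHGAP19, at -1.66 ± 0.16 (SE; adjusted p = 2.56e-08), UNG, at -1.64 ± 0.15 (SE; adjusted p = 9e-09), VANGL1, at -1.59 ± 0.12 (SE; adjusted p = 7.27e-10), IREB2, at -1.06 ± 0.05 (SE; adjusted p = 6.9e-13), and GXYLT1, at -0.72 ± 0.07 (SE; adjusted p = 1.35e-08). Of the cell division genes, 9 of 13 were lower and none higher, with a median of -0.95; the 4 not called were CENPU, KIF4A, MZT1 and RAD51AP1. The proliferation list was lower with siMondoA than with siMlx for 11 of 36 genes with DXR and 36 untreated.

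The response to DXR was also compared with that in siControl cells, as an interaction. A positive value means that DXR raised the gene more, or lowered it less, than in siControl cells, so that the knockdown's fall was smaller with DXR. Both comparisons share the siControl libraries, and both conditions entered the rule. The interaction compares the falls that chose the members, so it is not independent of the rule. Over the 9721 genes at the level, fewer were lower by the rule's margin with DXR than untreated. The counts were 473 with DXR and 939 untreated for siMondoA, and 699 and 955 for siMlx. Most of all genes were not lowered, so their shares are not a matched background for the members' counts. With siMondoA 18 members were higher and 0 lower, where 5.84% of all genes were higher and 4.28% lower, and the median was 0.31 against -0.01 over all genes. At an unadjusted p under 0.05 it was 25 and 0, and DESeq2 gave 18 and 0. With siMlx 20 were higher and 1 lower (6.43% and 5.81% of all genes), with a median of 0.25 against -0.02. At an unadjusted p under 0.05 the siMlx counts were 27 and 3, and DESeq2 gave 22 and 0.

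VANGL1, FGF2, UNG, YWHAG and IREB2 had the smallest p with siMondoA. The interaction was 1.4 ± 0.16 (SE; adjusted p = 1.98e-05) for VANGL1, 1.25 ± 0.14 (SE; adjusted p = 1.51e-05) for FGF2, 1.14 ± 0.20 (SE; adjusted p = 0.00105) for UNG, 0.53 ± 0.07 (SE; adjusted p = 0.000141) for YWHAG and 0.44 ± 0.07 (SE; adjusted p = 0.000366) for IREB2. With siMlx it was 1.2 ± 0.12 (SE; adjusted p = 1.32e-06) for ARHGAP18, 0.85 ± 0.14 (SE; adjusted p = 0.000549) for DNAJC6, 0.73 ± 0.08 (SE; adjusted p = 9.19e-06) for SLC4A7, 0.68 ± 0.07 (SE; adjusted p = 2.64e-06) for ANKRD52 and 0.64 ± 0.11 (SE; adjusted p = 0.000418) for OGFRL1. The 1 member lower was ANLN, at -0.77 ± 0.23 (SE; adjusted p = 0.0307). Its adjusted p was 0.0511 by DESeq2 and rose to between 0.0568 and 0.0868 without any 1 of 7 libraries. In the cell division group 5 of 13 were higher with siMondoA and 1 was higher and 1 lower with siMlx, with medians of 0.62 and -0.19. The proliferation list had 9 higher and 1 lower with siMondoA, and 0 higher and 22 lower with siMlx.

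MondoA's partners and known targets were described from lists that hold none of the members. Over all 13676 genes tested against siControl by edgeR's quasi-likelihood test, 10.9% were higher and 13.9% lower with siMondoA and 14% and 16.2% with siMlx in DXR cells; in untreated cells these shares were 23.3% and 23.3% with siMondoA and 24.9% and 23% with siMlx. Of 11 tested genes of the MAX-MLX network, 1 was higher and 4 lower with siMondoA and 3 and 1 with siMlx in DXR cells. In untreated cells 4 were higher and 4 lower with siMondoA and 3 and 3 with siMlx. MYC was -0.57 ± 0.07 (SE; adjusted p = 2.89e-06) with siMondoA and 0.51 ± 0.07 (SE; adjusted p = 6.82e-06) with siMlx in untreated cells, and MAX was -0.59 ± 0.07 (SE; adjusted p = 5.1e-07) with siMondoA. Of 18 tested glucose-responsive targets, 3 were higher and 5 lower with siMondoA and 2 and 5 with siMlx in DXR cells. In untreated cells 4 were higher and 6 lower with siMondoA and 6 and 6 with siMlx. TXNIP was -3.88 ± 0.24 (SE; adjusted p = 4.18e-10) with siMondoA and -2.73 ± 0.22 (SE; adjusted p = 1.2e-08) with siMlx once DXR was given, with -3.46 ± 0.32 (SE; adjusted p = 3.56e-08) for siMondoA and -2.59 ± 0.29 (SE; adjusted p = 3.61e-07) for siMlx untreated. KLF10 was -0.2 ± 0.08 (SE; adjusted p = 0.0452) with siMondoA and -0.38 ± 0.08 (SE; adjusted p = 0.000693) with siMlx, untreated. With DXR, KLF10 was -0.11 ± 0.08 (SE, adjusted p = 0.333) with siMondoA and -0.26 ± 0.08 (SE, adjusted p = 0.0172) with siMlx. There, ARRDC4 was -1.74 ± 0.56 (SE, adjusted p = 0.0267) with siMondoA and 0.17 ± 0.44 (SE, adjusted p = 0.811) with siMlx. In untreated cells ARRDC4 was called with neither siRNA (adjusted p = 0.703 with siMondoA and 0.685 with siMlx, by edgeR). On the log2(CPM + 0.5) scale, with no test, ARRDC3 differed from siControl by 0.27 with siMondoA and -1.74 with siMlx in untreated cells. Of 42 interferon-stimulated genes, none of them a member, 24 were higher with siMondoA and 41 lower with siMlx in DXR cells, and 5 were lower with siMondoA and 39 with siMlx in untreated cells.

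The 5 genes outside the set whose group means followed the members' mean most closely over the 6 groups, by Pearson's r, were TNPO1 (0.986), NSD1 (0.983), ACBD5 (0.980), ATF7 (0.979) and OIP5-AS1 (0.974). They lay short of the rule. OIP5-AS1 was -0.42 with siMondoA and -0.69 with siMlx in DXR cells and -0.91 and -0.83 in untreated cells, and TNPO1 was -0.45 and -0.50 in untreated cells.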

How the data were processed

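RNA of 18 RPE-1 libraries was sequenced. The authors deposited read counts per gene, used for every test, and RPKM values, used only to compare levels between genes. Per the submitters' processing notes, the tools were bcl2fastq and TopHat2 2.1.1 and the genome build was GRCh38; which program counted reads, with which annotation and strand setting, is not given in the sources used here, so overlapping genes cannot be told apart. CPM was count over the library's total. Counts were fitted with edgeR 4.0.16 (R 4.3.3, limma 3.58.1; TMM scaling, low-count filter by group, 1 mean per group, quasi-likelihood test), and p-values were adjusted by Benjamini-Hochberg over 13676 genes, with a threshold of 0.05 and 12 residual degrees of freedom; the procedure was tested on simulated data. DESeq2 1.42.0, other scalings and filters, a replicate block and leaving out each library were alternatives.

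The members and gene lists were chosen with earlier results of these data known. Genes named were every member, the 12 with the deepest weakest difference and up to 4 more per role with library values, up to 5 in each direction with the smallest p per comparison, the neighbours of the threshold, listed genes that were called, and the 5 most alike. Role groups were assigned by hand. Differences of members and of ARRDC3 from siControl are on the log2(CPM + 0.5) scale and carry no test. Those of MYC, MAX, TXNIP, KLF10, ARRDC4 and the gene lists are edgeR's. Replicate numbers were checked for pairing by correlating deviations from group means. Among the 3 DXR groups every same-numbered pair exceeded 0.1 (0.154 to 0.262), and between no other 2 groups did every pair. The numbers were therefore taken to pair the DXR libraries, although differently numbered pairs were not set beside them. The main fit did not use this pairing, which entered only through the replicate block.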

Additional observations from a re-analysis of the deposited data

Results flagged for a closer look

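The response to DXR differed between knockdown and siControl cells by the interaction test for some members, and these results are listed here without an explanation. With siMondoA, 18 members responded more positively than with siControl and 0 more negatively, against 5.84% and 4.28% of all 13676 genes tested. By size the named ones were VANGL1 at 1.40, FGF2 at 1.25, UNG at 1.14, YWHAG at 0.53 and IREB2 at 0.44 on the log2 scale. With siMlx, 20 members responded more positively and 1 more negatively, against 6.43% and 5.81% of all genes tested. The named ones were ARHGAP18 at 1.20, DNAJC6 at 0.85, SLC4A7 at 0.73, ANKRD52 at 0.68 and OGFRL1 at 0.64, and the 1 in the other direction was ANLN at -0.77. The untreated and DXR means of these genes both entered the rule that chose them, so the interactions are not independent of it. The shares over all genes are not a matched background, since most genes were not lowered.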

How the results depend on the processing

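Of 215 recomputed counts, 203 kept within 1.5 times of the reported one and 12 did not; of 798 recomputed values of named genes, 790 kept their direction and side of the threshold, 8 lost significance and 0 reversed. The set had 8 members with a fall of 1 or more, and 51 to 61 when 1 library was left out, with 41 of the 55 kept in all 18 such settings. It had 57 members with TMM-scaled totals (54 shared), 52 with a pseudocount of 1, 60 at a mean CPM of 1 and 47 at 10. The count of members lower in the siMlx interaction, 1 as reported (ANLN), was 0 with DESeq2, 3 without a low-count filter and 0 to 3 when 1 library was left out. ANLN missed the threshold in all 8 weaker settings, at an adjusted p of 0.0511 with DESeq2 and of 0.0568 to 0.0868 without 1 library; the cause was not tested. Of 45 same-numbered pairs of libraries over all groups, 20 correlated above 0.1 (-0.091 to 0.304). Among the untreated groups, replicate 3 libraries correlated at 0.232, 0.304 and 0.191. Their replicate 2 libraries correlated at 0.036, 0.095 and 0.013. The untreated replicate 3 libraries thus deviated together, and the source of this was not tested. With the replicate block the count of members lower in the siMlx interaction was 3, and no other count of members moved by over 1.5 times. For the gene lists the block was chosen after seeing the data. Among the paired DXR groups it moved no printed list count by over 1.5 times: 34 interferon-stimulated genes were higher with siMondoA than with siControl and 16 proliferation genes lower with siMondoA than with siMlx. It added a call for MXD3 with siMondoA (adjusted p = 0.0496) and PPP1R3C with siMlx (0.0474), by edgeR. Elsewhere the proliferation list had 6 higher and 4 lower with siMlx in untreated cells and 3 lower in the siMondoA interaction. Counts of 24 reads in the lowest library limit the precision for POMK.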
